A study of Mus musculus with 28 samples.

Results

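The genes of cholesterol and fatty acid synthesis described here are 30 genes picked by symbol. They comprise 17 enzymes of the sterol branch, 9 enzymes of fatty acid synthesis, elongation and desaturation, and 4 genes of sterol regulation and transport. Each of the 30 symbols had exactly 1 row in the deposited RNA-seq table, which holds 43143 rows, of which 18509 carry a symbol.

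The study deleted KEAP1, the adaptor that marks the transcription factor NRF2 for degradation, in 3LL cells (Lewis lung carcinoma, a mouse lung cancer line), and then deleted NRF2 as well, and examined the tumors that these cells form in immunocompetent mice. RNA-seq was available for 28 libraries in 7 groups of 4. Cultured cells were WT 3LL cells, KEAP1-KO cells and KEAP1-NRF2-DKO cells (DKO below), the last made from a KEAP1-KO line, so that both edited lines lack KEAP1. Tumors were grown under the skin of albino C57BL/6 male mice, transplanted at 6 weeks of age and taken at day 10. In Experiment A, WT cells were placed in the left flank and KEAP1-KO cells in the right. In Experiment B, KEAP1-KO cells were placed in the left flank and DKO cells in the right. Both tumors of an experiment were carried by the same mice, but which tumors shared a mouse is not given in the sources used here, and the tumors were fitted as unpaired. Genotype and flank therefore changed together, and since no experiment holds both WT and DKO tumors, these were not set against each other. Each edited line was grown from 1 colony, so that a difference between lines and a difference between genotypes cannot be told apart. Nothing in the sources used here says that the 4 cell libraries of a group were separate cultures, so p-values measure the spread between these libraries only. Among the labels, the protocol for extraction speaks of mouse livers, in conflict with the titles. The titles were followed, and the genotype and host cell markers given below bear on them.

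Cholesterol is built from acetyl-CoA through the mevalonate pathway, which yields isoprenoid units, and then through squalene and lanosterol. Fatty acid synthesis starts from the same acetyl-CoA, released from citrate by ATP citrate lyase. SREBP2, encoded by Srebf2, is known mainly for driving the sterol enzymes and SREBP1, encoded by Srebf1, the fatty acid enzymes, and both are held back by INSIG proteins when sterols are plentiful.

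Values are on the deposited scale, log2(normalized count + 4), so a level of 2 means 0 reads and differences of low genes are understated. A difference is called when limma's Benjamini-Hochberg adjusted p, over all rows tested, is under 0.05. Only Acat2 and Pmvk have a row for the whole gene. The other members are represented by 1 transcript: 12 by a retained intron, 7 by a processed transcript, 6 by a protein-coding transcript and 3 by a transcript subject to nonsense-mediated decay. A retained intron can follow unspliced RNA. For 8 members (Elovl6, Acly, Acaca, Srebf2, Srebf1, Dhcr7, Lss and Msmo1) another row of the same gene, listed without the symbol, was higher on average, so sums over all rows of a gene are given for them where they change the picture. Levels of different genes are not compared.

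Recovered depth was 4222365 to 7524280 reads per library, with a median of 5619788. The targeted gene Keap1 (gene row) averaged 9.45 in WT cells against 7.59 in KEAP1-KO and 7.35 in DKO cells, and 8.88 in WT tumors against 7.37 to 7.46 in the 3 groups of edited tumors. Nqo1, an NRF2 target, averaged 12.45 in KEAP1-KO cells against 9.01 in WT and 6.77 in DKO cells, and in tumors it was 6.85 in WT, 12.41 and 12.23 in KEAP1-KO and 5.93 in DKO. The listed Nfe2l2 row, a processed transcript, averaged 4.84 in KEAP1-KO and 5.06 in DKO cells, with overlapping libraries, and so does not check the NRF2 deletion. The leukocyte marker Ptprc had at most 1.89 normalized counts in any cell library and 73.4 to 511 in tumors, and the macrophage marker Adgre1 was at 0 in all cell libraries. Among the 7 adipocyte markers with a row, Fabp4 reached 26.7 normalized counts in tumors. Of the epithelial and lung tumor markers, 4 of 7 had a row, and they summed to 2630 to 5250 normalized counts in cells and 1500 to 3420 in tumors.

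Tumors carried more RNA of the sterol pathway members picked here than cultured cells of the same genotype, in all 3 genotypes. Of the 30 members, 14 were higher in WT tumors than in WT cells, 18 in KEAP1-KO tumors (the mean of both experiments) than in KEAP1-KO cells, and 16 in DKO tumors than in DKO cells. No listed row of a member was called lower in tumors in these 3 comparisons (with rows summed, Srebf1 and Acaca were lower in KEAP1-KO). An unadjusted limma p under 0.05, in either direction, was found for 16, 18 and 19 of the 30 members. Over all 37246 rows it was found for 17102, 18653 and 18547. The background was wide: of the 37246 rows tested, 24.7% were called higher and 14.1% lower in WT tumors, 27.0% and 16.9% in KEAP1-KO tumors, and 27.6% and 15.9% in DKO tumors. Sterol enzymes made up 10, 12 and 10 of the member calls out of 17. The median difference of the sterol enzymes was 0.93, 1.27 and 1.0, against 0.20, 0.17 and 0.23 over all rows tested. The listed rows of Fdft1 and Acly failed the filter on low values in cells. They were tested here only because of their tumor libraries, which favors calls in this direction. The KEAP1-KO counts include both genes, and the DKO count of members includes Acly.

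Along the mevalonate pathway, Hmgcs1, which condenses acetoacetyl-CoA with acetyl-CoA, averaged 968 ± 37.7 normalized counts in WT cells and 2392 ± 381 in WT tumors (SD, n = 4 each). Its log2 difference between tumors and cells was 1.29 in WT, 1.97 in KEAP1-KO and 1.95 in DKO (SE 0.08 to 0.10). Fdps, which makes farnesyl pyrophosphate, differed by 1.19, 1.72 and 1.76, and Idi1, the isopentenyl pyrophosphate isomerase, by 0.98, 1.64 and 1.90. For these 3 genes every tumor library was above every cell library.

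Mvd, the decarboxylase that forms isopentenyl pyrophosphate, was higher in tumors by 0.86, 1.31 and 1.56 in WT, KEAP1-KO and DKO. Acat2, the cytosolic thiolase at the entry of the pathway, was higher by 0.74, 1.21 and 1.0. Pmvk, phosphomevalonate kinase, was higher in KEAP1-KO (0.61) and DKO tumors (0.78), while the WT value of 0.09 was not called (limma adjusted p = 0.63). Mvk, mevalonate kinase, was higher in WT (1.45) and KEAP1-KO tumors (1.28), and its DKO value was 0.72 with adjusted p = 0.118. Summing the rows of Mvk ended the KEAP1-KO call (adjusted p = 0.217, the highest of its 21 alternatives).

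In the later steps, Hsd17b7, a sterol ketone reductase, had a larger difference between tumors and cells than any other sterol enzyme in WT, at 2.43 ± 0.14 (SE), with 2.27 in KEAP1-KO and 2.19 in DKO. Sqle, the squalene epoxidase, was higher in tumors by 1.2, 1.27 and 1.5 in WT, KEAP1-KO and DKO. Cyp51, the lanosterol demethylase, was higher by 0.96, 1.5 and 1.70. Nsdhl, which acts with Hsd17b7 in removing methyl groups from the sterol ring, was higher by 0.72, 1.19 and 0.98. Tumor and cell libraries did not overlap for any of these 4 genes in any genotype.

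The listed rows of the remaining sterol enzymes were near the detection limit in cells. Fdft1, squalene synthase, was called in KEAP1-KO (2.35 ± 0.39), where cells averaged 0.5 normalized counts and tumors of Experiment A 18.2. Its row failed the filter in cells and was tested only because of its tumor libraries. Ebp, Sc5d and Dhcr7, which act late in the pathway, had differences of 0.09 to 0.92 that were not called. Lss, the lanosterol synthase, and Msmo1, a methylsterol oxidase, were not called on their listed rows, which stood at 0 reads in most libraries of most groups. With all rows of each gene summed, an alternative added after seeing the data, Lss was higher in tumors by 1.63, 1.77 and 2.11 and Msmo1 by 1.49, 2.29 and 2.28 in WT, KEAP1-KO and DKO, all with adjusted p of 2.6e-07 or less.

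**Figure D1:**
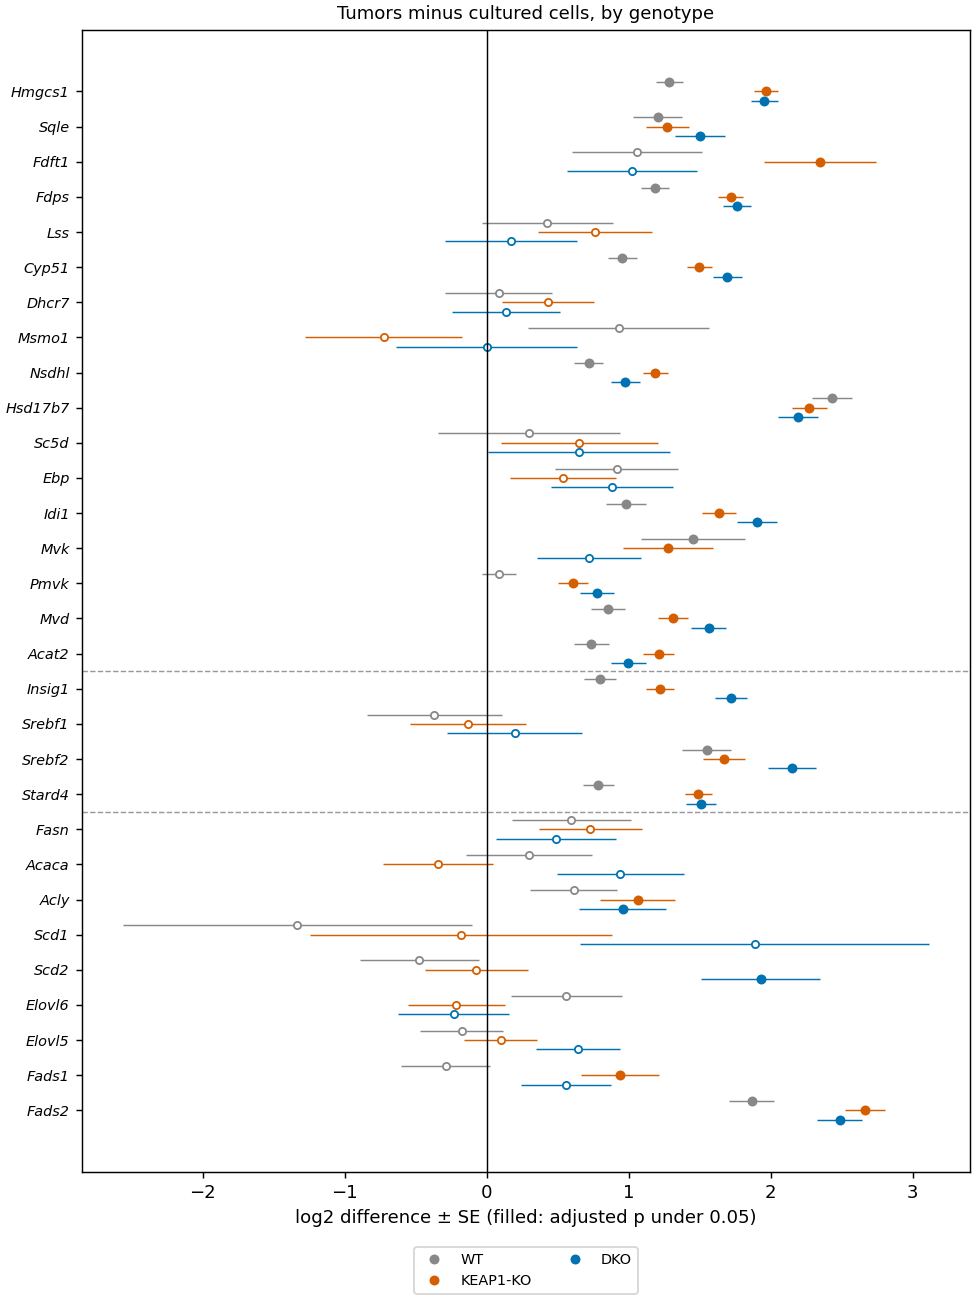
Log2 difference between tumors and cultured cells of the same genotype (x axis, log2 units, ± SE) for each of the 30 members, with WT in grey, KEAP1-KO (mean of both experiments) in orange and DKO in blue, and filled points where the limma adjusted p is under 0.05. Dashed lines separate the 17 sterol enzymes, 4 regulators and transport genes and 9 fatty acid enzymes. All filled points lie right of 0, and most of them belong to the upper 2 blocks.

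The regulators moved with the sterol enzymes, except Srebf1. Srebf2 (a retained intron row) was higher in tumors by 1.55 in WT, 1.67 in KEAP1-KO and 2.15 in DKO, and with its rows summed by 0.69, 0.54 and 1.03, all still called. Insig1, which retains SREBPs in the endoplasmic reticulum and is itself induced by them, was higher by 0.80, 1.22 and 1.72. Stard4, a sterol carrier protein, was higher by 0.79, 1.49 and 1.51. Srebf1 differed by -0.37, -0.13 and 0.20 with no call, and its summed rows gave -0.35 in KEAP1-KO (adjusted p = 0.0352) and 0.62 in DKO (adjusted p = 0.00174).

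The fatty acid enzymes did not move as 1 block. Fads2, the desaturase that opens polyunsaturated fatty acid synthesis, was higher in tumors of every genotype, by 1.87, 2.66 and 2.49, with no overlap of libraries. Scd2, a stearoyl-CoA desaturase, was called higher in the DKO comparison (1.93 ± 0.42), where the DKO cell libraries were spread from 5.83 to 9.08. Acly, the ATP citrate lyase, was called in KEAP1-KO (1.06) and DKO (0.96), with 8.1 normalized counts on average in DKO tumors. Its listed row failed the filter in cells and was tested only because of its tumor libraries. The DKO call was lost in 5 of 17 alternatives (adjusted p up to 0.154). Among these were quantile normalization, median centring and leaving out DKO cell replicate 3. With rows summed, Acly differed by 0.95, 1.70 and 1.52 in WT, KEAP1-KO and DKO, all called. Fads1 was called in KEAP1-KO (0.94) and, with rows summed, in KEAP1-KO (0.71) and DKO (0.74). Fasn, the fatty acid synthase, had differences of 0.49 to 0.73 and adjusted p of 0.11 or more on its listed row, and with rows summed it was called in WT (0.93) and KEAP1-KO (0.64). The listed row of Acaca, the acetyl-CoA carboxylase, did not pass the filter in cells, where its summed rows averaged 7.83 to 7.92. These summed rows were lower in KEAP1-KO tumors than in cells, with a difference of -0.45 (limma adjusted p = 1.2e-04), and stood at -0.19 in WT and -0.23 in DKO without a call. Acaca, Scd1, Elovl6 and Elovl5 were not called on their listed rows, and the Scd1 row stood at 0 reads in at least 1 library of every group and at 4.18 to 6.49 in the others.

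Tumors hold host cells that the cultures lack. The summed leukocyte markers were 6.29 to 52.4 normalized counts in cells and 665 to 3280 in tumors, and all 8 of 8 were called higher in tumors in every genotype. Fibroblast markers summed to 267 to 701 in cells and 1730 to 14800 in tumors. Proliferation genes went the other way, with 7 of 8 lower in tumors in each genotype and sums of 15100 to 23000 in cells against 4090 to 8120 in tumors. Of the 6 adipocyte markers tested, 5, 3 and 5 were called higher in WT, KEAP1-KO and DKO tumors and none lower, with sums of 90.4 to 193 in cells and 124 to 288 in tumors. The part of these markers in the differences was not tested. In bulk RNA, fewer cells of a type and less RNA per cell cannot be told apart.

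In cultured cells, KEAP1 deletion went with lower RNA of 3 mevalonate enzymes and higher Hsd17b7. Hmgcs1, Idi1, Pmvk and the desaturase Fads2 were lower in KEAP1-KO than in WT cells and Hsd17b7 was higher. The libraries of both groups did not overlap for any of the 5, which restates the values behind the calls and adds no support. Of the 30 members, 22 passed the filter on low values in the cell fit. Of all 29744 rows tested, 8.13% were called higher and 7.33% lower, so 1 and 4 of 22 are to be read against these shares. The median difference was 0.03 over the 12 sterol enzymes tested and 0.02 over all rows.

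Hmgcs1 read 9.97, 9.97, 9.85 and 9.92 in WT cells, 9.51, 9.63, 9.67 and 9.63 in KEAP1-KO cells, and 9.40, 9.40, 9.53 and 9.50 in DKO cells. WT cells were thus the highest of the cell groups. The KEAP1-KO difference was -0.31 ± 0.05 (SE, limma adjusted p = 0.00116), or 779 normalized counts against 968. DKO cells were a further -0.15 from KEAP1-KO cells, a difference that was not called (adjusted p = 0.108), and -0.47 from WT cells (adjusted p = 4.3e-05).

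Idi1 read 9.13, 9.03, 9.17 and 8.85 in WT cells, 8.48, 8.58, 8.58 and 8.77 in KEAP1-KO cells, and 8.21, 8.10, 8.03 and 8.11 in DKO cells. The 3 genotypes form 3 levels without overlap. KEAP1-KO cells were -0.44 ± 0.08 from WT (adjusted p = 0.00233), and DKO cells a further -0.49 ± 0.08 from KEAP1-KO (adjusted p = 0.0018).

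Pmvk, the gene row of phosphomevalonate kinase, read 6.84, 6.75, 6.98 and 6.98 in WT cells, 6.20, 6.43, 6.33 and 6.29 in KEAP1-KO cells, and 6.01, 5.62, 5.73 and 5.70 in DKO cells. It showed the same order, again without overlap. The steps were -0.58 ± 0.11 (adjusted p = 0.00268) and -0.55 ± 0.11 (adjusted p = 0.00622), and DKO cells were -1.12 from WT cells (adjusted p = 1.2e-05), from 115 to 50.7 normalized counts.

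Hsd17b7 read 6.22, 6.15, 6.06 and 6.23 in WT cells, 7.01, 6.93, 6.96 and 7.02 in KEAP1-KO cells, and 6.72, 6.70, 7.18 and 6.93 in DKO cells. Both edited lines lay above WT cells and overlapped each other. KEAP1-KO cells were 0.82 ± 0.11 above WT (adjusted p = 1.9e-04), and DKO cells 0.72 ± 0.11 (adjusted p = 4.5e-04). DKO cells differed from KEAP1-KO cells by -0.10 ± 0.11 (adjusted p = 0.706).

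Fads2 read 6.33, 6.51, 6.47 and 6.44 in WT cells and 5.73, 5.93, 6.01 and 6.27 in KEAP1-KO cells, a difference of -0.45 ± 0.14. Its call (limma adjusted p = 0.0463) was lost in 13 of 19 alternatives, 7 of them leaving out 1 library, with adjusted p from 0.0216 to 0.12. The calls of Hmgcs1, Idi1, Pmvk and Hsd17b7 were lost only when a difference of at least 1 was also required. With the rows of each gene summed, 3 members were higher and 5 lower, with Lss (0.51) and the mevalonate kinase Mvk (1.0) added to the higher and Fdps (-0.21) to the lower. Proliferation genes were lower in KEAP1-KO than in WT cells for 5 of 8, and their part was not tested.

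The RefSeq promoters (250 bases before to 50 after the start, GRCm38.p6, 5′ to 3′) of the 3 genes Hmgcs1, Idi1 and Hsd17b7 are shown because their RNA moved in opposite directions in the same cells, and that of Nsdhl because it moved in tumors. Capitals mark every match, on either strand, to TCACNCCAC (SRE-like, after the element that SREBPs bind), CCAAT (the box bound by NF-Y, whose other strand reads ATTGG) and TGACNNNGC (the core of the antioxidant response element that NRF2 binds). No match overlapped another in these 4 promoters. They lie at chr13:119690101-119690400 (Hmgcs1, plus strand), chr13:8885356-8885655 (Idi1, plus strand), chr1:169969156-169969455 (Hsd17b7, minus strand) and chrX:72918271-72918570 (Nsdhl, plus strand).
Hmgcs1: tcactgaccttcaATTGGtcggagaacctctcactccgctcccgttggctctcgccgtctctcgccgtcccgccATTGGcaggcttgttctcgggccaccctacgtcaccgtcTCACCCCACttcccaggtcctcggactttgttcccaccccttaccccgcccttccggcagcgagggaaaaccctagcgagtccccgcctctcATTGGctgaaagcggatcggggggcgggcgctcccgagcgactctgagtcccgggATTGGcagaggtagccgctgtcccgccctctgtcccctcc
Idi1: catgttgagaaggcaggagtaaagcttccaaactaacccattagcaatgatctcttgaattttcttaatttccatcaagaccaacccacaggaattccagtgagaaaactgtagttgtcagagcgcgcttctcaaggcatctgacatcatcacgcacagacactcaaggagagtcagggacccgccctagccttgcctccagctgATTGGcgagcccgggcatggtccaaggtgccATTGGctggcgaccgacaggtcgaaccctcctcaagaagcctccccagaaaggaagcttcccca
Hsd17b7: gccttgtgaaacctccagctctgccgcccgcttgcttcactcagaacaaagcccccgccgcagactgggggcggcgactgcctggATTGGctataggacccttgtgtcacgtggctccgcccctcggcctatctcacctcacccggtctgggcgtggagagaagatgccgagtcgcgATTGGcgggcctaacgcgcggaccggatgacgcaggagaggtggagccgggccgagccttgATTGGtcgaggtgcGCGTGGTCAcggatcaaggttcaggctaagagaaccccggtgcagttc
Nsdhl: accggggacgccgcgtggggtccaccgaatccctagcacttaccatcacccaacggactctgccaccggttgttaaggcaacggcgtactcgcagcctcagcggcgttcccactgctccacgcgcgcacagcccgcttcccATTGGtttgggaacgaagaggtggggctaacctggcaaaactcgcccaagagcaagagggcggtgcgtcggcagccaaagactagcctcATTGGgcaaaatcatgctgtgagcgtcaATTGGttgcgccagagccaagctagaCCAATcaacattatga

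A RefSeq promoter was matched for 14 of 17 sterol enzymes, 3 of 4 regulators and transport genes and 6 of 9 fatty acid enzymes. The CCAAT box was present in 13 of 14, 3 of 3 and 3 of 6, and in 37.4% of all 32851 promoters of this length (41.1% of the 27025 genes had it in at least 1 promoter). The SRE-like motif was present in Hmgcs1 alone, against 1.24% of all promoters and 1.44% of genes. The antioxidant response element core was present in Dhcr7, Hsd17b7, Mvk and Pmvk, 4 of the 14 sterol enzymes, in none of the others, and in 12.4% of all promoters and 14.0% of genes. Hsd17b7 and Pmvk, which share that core, differed in opposite directions between KEAP1-KO and WT cells. A match describes these letters in these windows only.

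Additional loss of NRF2 in cells went with lower Fdps, Idi1, Pmvk and Mvd, all of them enzymes between mevalonate and farnesyl pyrophosphate. These 4 of the 22 members tested were lower in DKO than in KEAP1-KO cells and none was higher, against 4.85% of all rows lower and 3.98% higher. An unadjusted limma p under 0.05 was found for 6 of 22 members and for 5819 of 29744 rows. Against WT cells, DKO cells were lower for Hmgcs1, Fdps, Idi1 and Pmvk and higher for Hsd17b7, where 9.20% of all rows were lower and 8.46% higher. Both comparisons use the same DKO libraries, so their values are given side by side.

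Fdps read 9.14, 8.85, 9.05 and 8.95 in WT cells, 8.73, 8.86, 8.80 and 8.85 in KEAP1-KO cells, and 8.37, 8.31, 8.40 and 8.36 in DKO cells. DKO cells lay apart from both other groups, which overlapped each other. DKO cells were -0.45 ± 0.065 from KEAP1-KO cells (limma adjusted p = 6.1e-04), while KEAP1-KO cells were -0.19 ± 0.065 from WT cells, which was not called (adjusted p = 0.0775).

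Mvd read 7.26, 6.83, 7.09 and 7.06 in WT cells, 7.27, 7.34, 7.10 and 7.41 in KEAP1-KO cells, and 6.87, 6.70, 6.83 and 7.0 in DKO cells. DKO libraries were all under the KEAP1-KO libraries but overlapped WT. The DKO difference from KEAP1-KO was -0.43 ± 0.11 (adjusted p = 0.025), and it lost its call in 10 of 19 alternatives, 6 of them leaving out 1 library, with adjusted p from 0.0118 to 0.0775.

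Scd2 read 9.54, 9.09, 9.30 and 9.40 in KEAP1-KO cells and 7.39, 8.24, 9.08 and 5.83 in DKO cells. The groups did not overlap, but the DKO libraries ranged over more than 3 log2 units, and the difference of -1.70 ± 0.50 was not called (adjusted p = 0.0581; 0.0076 at the lowest of 19 alternatives). With the rows of each gene summed, 8 members were lower in DKO than in KEAP1-KO cells, with Lss (-0.56), Srebf1 (-0.61), Srebf2 (-0.66) and Scd2 (-1.70) added to the 4 above. Against WT cells, the summed rows added Mvk (0.95) to the higher and Srebf2 (-0.49) and Scd2 (-1.42) to the lower. Scd2 has 1 row, so in both comparisons its own values were the same and only the other rows of the fit changed.

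**Figure D2:**
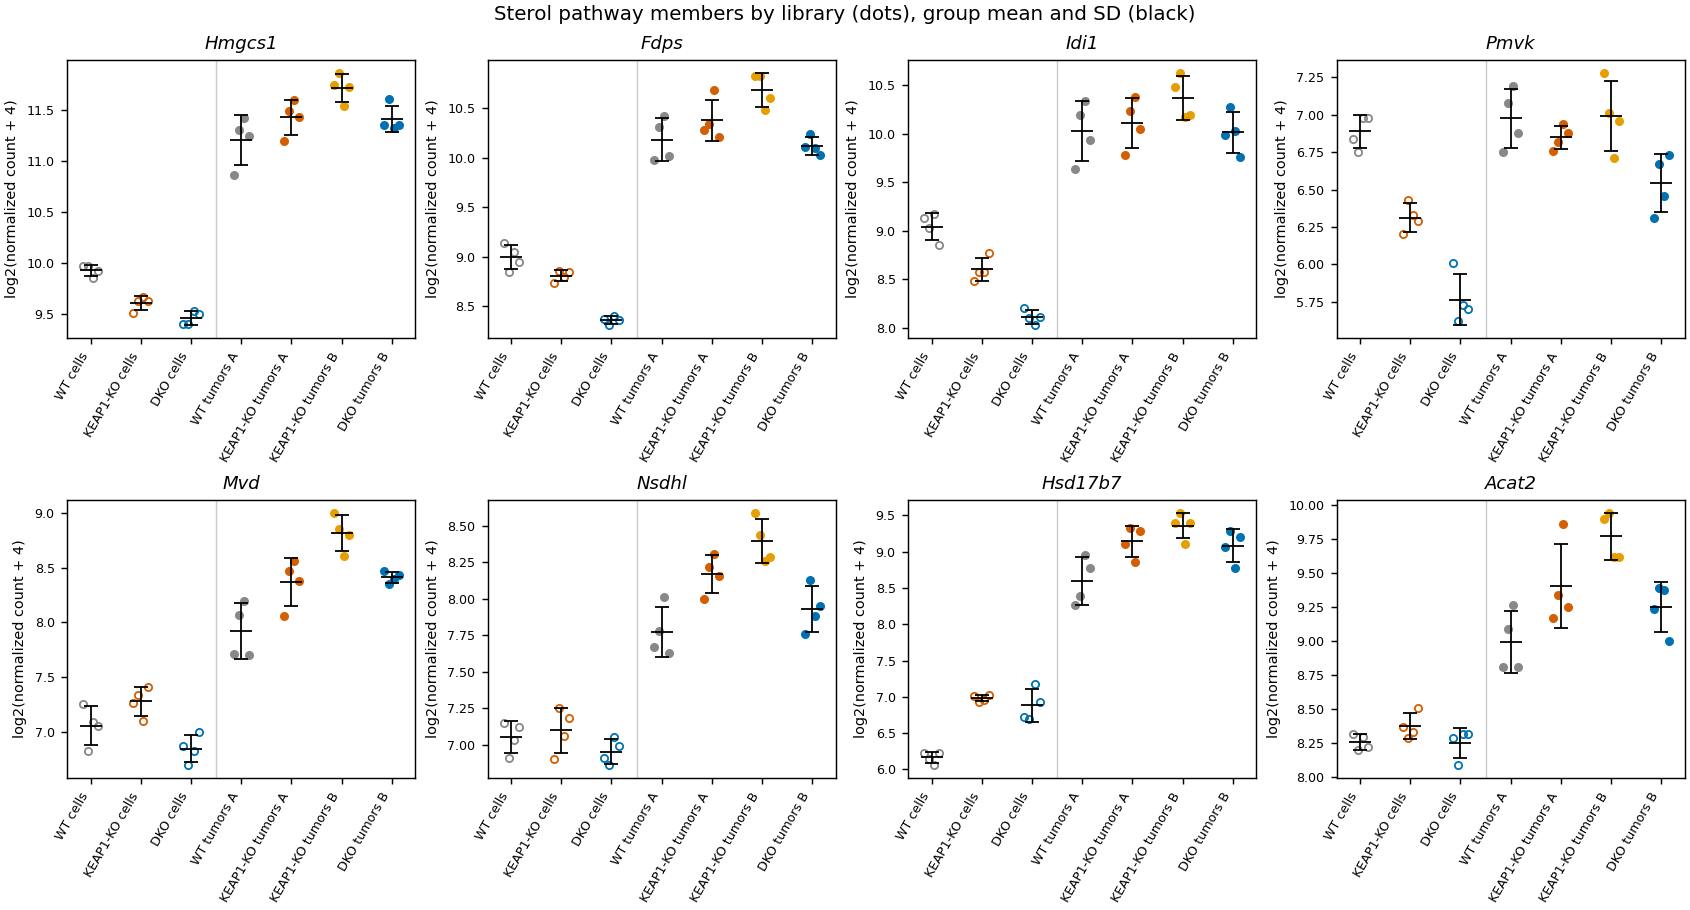
Level of 8 sterol enzymes (y axis, log2(normalized count + 4)) in every library of the 7 groups, with open dots for cells, filled dots for tumors, and the group mean ± SD in black (n = 4). All tumors lie above all cells except for Pmvk, where they do so within KEAP1-KO and within DKO but overlap in WT. In cells Idi1 and Pmvk step down from WT to KEAP1-KO to DKO while Hsd17b7 steps up between WT and both edited lines.

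In tumors, KEAP1 deletion went with higher RNA on the listed rows of 3 sterol enzymes. These rows are a retained intron (Nsdhl), a processed transcript (Hsd17b7) and a transcript subject to nonsense-mediated decay (Mvd). Nsdhl, Hsd17b7 and Mvd were called higher in KEAP1-KO than in WT tumors of Experiment A in the unpaired fit, and no member was called lower. An unadjusted limma p under 0.05 was found for 7 of 28 members and for 8385 of 34215 rows, a similar share. Of the 30 members, 28 passed the filter in the tumor fit (Msmo1 and Elovl6 did not), and the 3 calls stand against 5.61% of all 34215 rows higher and 7.49% lower. The differences of 13 of the 16 sterol enzymes tested were above 0, with a median of 0.28 against -0.03 over all rows.

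Nsdhl read 7.67, 7.78, 8.01 and 7.63 in WT tumors and 8.0, 8.22, 8.31 and 8.16 in KEAP1-KO tumors of Experiment A. Only the highest WT tumor and the lowest KEAP1-KO tumor crossed. The difference was 0.40 ± 0.11 (limma adjusted p = 0.0233), from 216 to 286 normalized counts.

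Hsd17b7 read 8.26, 8.39, 8.96 and 8.78 in WT tumors and 9.10, 9.32, 8.85 and 9.29 in KEAP1-KO tumors, a difference of 0.54 ± 0.16 (adjusted p = 0.0324). Mvd read 7.71, 8.07, 8.20 and 7.70 in WT tumors and 8.06, 8.47, 8.56 and 8.38 in KEAP1-KO tumors, a difference of 0.45 ± 0.13 (adjusted p = 0.0276). Both pairs of groups overlapped.

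These 3 calls depended on single tumors. Without WT tumor replicate 1 or without KEAP1-KO tumor replicate 2 of Experiment A, none of the members was called, and over the tumors left out in turn the count ran from 0 to 5. The adjusted p ranged over all alternatives from 0.0102 to 0.0695 for Nsdhl, 0.0116 to 0.108 for Hsd17b7 and 0.00875 to 0.0914 for Mvd. With the rows of each gene summed, 8 members were higher, with Lss (0.47), Cyp51 (0.34), Msmo1 (0.67), Acly (0.76) and Fads1 (0.79) added.

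The other sterol enzymes had differences between -0.44 (Lss) and 0.70 (Sc5d) without a call. Among them Hmgcs1 stood at 0.22 (adjusted p = 0.262), Idi1 at 0.09 and Pmvk at -0.12. No regulator and no fatty acid enzyme was called, and by limma 1 of 4 and 1 of 8 had an unadjusted p under 0.05. That fatty acid enzyme was Fads1, the desaturase downstream of Fads2, which read 3.36, 2.97, 2.54 and 3.43 in WT tumors and 4.59, 3.73, 3.67 and 4.06 in KEAP1-KO tumors, without overlap, a difference of 0.93 ± 0.34 (adjusted p = 0.0896).

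The same tumors differed in host cells. All 8 leukocyte markers and all 8 macrophage markers fell in KEAP1-KO against WT tumors of Experiment A, with medians of -2.06 and -1.65, and their sums were 2640 to 3280 and 5900 to 8050 normalized counts in WT tumors against 665 to 800 and 2690 to 3190 in KEAP1-KO tumors. Proliferation genes were lower for 3 of 8 and adipocyte markers for 3 of 6 (median -0.66, none above 0). Fibroblast markers were lower for 1 of 7 (median -1.28), and epithelial and lung tumor markers for 2 of 4. Keratinocyte and sebocyte markers were higher for 1 of 4, with sums that did not overlap and averaged 67.7 in WT and 139 in KEAP1-KO tumors, and sums of 50.4 to 68.0 in WT and 157 to 214 in KEAP1-KO cells. Their part in the sterol enzyme differences was not tested.

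NRF2 deletion went with lower RNA of 3 sterol enzymes in tumors. In Experiment B, Fdps, Nsdhl and Acat2 were called lower in DKO than in KEAP1-KO tumors in the unpaired fit, and no member was called higher. Of all rows, 4.64% were called lower and 4.22% higher. An unadjusted limma p under 0.05 was found for 9 of 28 members and for 7070 of 34215 rows. The differences of 14 of the 16 sterol enzymes tested were under 0, with a median of -0.38 against 0 over all rows. Between the KEAP1-KO tumors of both experiments, which have 1 genotype, 13 of these 16 had differences above 0 (Experiment B minus Experiment A), with a median of 0.27.

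Fdps read 10.83, 10.83, 10.48 and 10.60 in KEAP1-KO tumors and 10.11, 10.24, 10.10 and 10.03 in DKO tumors of Experiment B. The groups did not overlap. The difference was -0.57 ± 0.12 (limma adjusted p = 0.00568), from 1652 to 1111 normalized counts, and it kept its call when any 1 tumor was left out.

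Nsdhl read 8.59, 8.44, 8.26 and 8.29 in KEAP1-KO tumors and 7.76, 8.13, 7.88 and 7.95 in DKO tumors, a difference of -0.46 ± 0.11 (adjusted p = 0.013). Acat2 read 9.90, 9.94, 9.62 and 9.62 in KEAP1-KO tumors and 9.24, 9.39, 9.38 and 9.0 in DKO tumors, a difference of -0.52 ± 0.15 (adjusted p = 0.0433). Neither pair of groups overlapped. The Acat2 call was lost whichever 1 of the 8 tumors was left out and in 13 of 20 alternatives in all, with adjusted p from 0.00641 to 0.124.

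Mvd read 9.0, 8.85, 8.61 and 8.80 in KEAP1-KO tumors and 8.47, 8.35, 8.40 and 8.43 in DKO tumors, again without overlap, and its difference of -0.40 ± 0.13 was not called (adjusted p = 0.0648). Pmvk stood at -0.45 (adjusted p = 0.0502), Idi1 at -0.36 and Hmgcs1 at -0.31. Sqle (-0.025) and Cyp51 (0.02) were close to 0. With the rows of each gene summed, 7 members were lower, with Lss (-0.39), Msmo1 (-0.81), Pmvk and Mvd added. Pmvk and Mvd have 1 row each, so their own values were the same and only the other rows of the fit changed.

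Insig1 went the other way. It read 9.74, 9.86, 9.56 and 9.79 in KEAP1-KO tumors and 10.10, 10.13, 10.02 and 10.13 in DKO tumors, without overlap, but the difference of 0.36 ± 0.13 was not called (adjusted p = 0.118; 0.00704 at the lowest of 19 alternatives). By limma, 1 of 4 regulators and 1 of 8 fatty acid enzymes had an unadjusted p under 0.05 and none was called. The fatty acid enzyme was Elovl5, an elongase of polyunsaturated fatty acids, at 0.91 ± 0.32 (adjusted p = 0.0979), with 6.3 normalized counts in KEAP1-KO and 14.7 in DKO tumors and no overlap.

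Leukocyte and macrophage markers differed here too, in the opposite direction to Experiment A. Of the 8 leukocyte and 8 macrophage markers, 7 and 5 were higher in DKO than in KEAP1-KO tumors, with sums of 1830 to 2690 and 5600 to 7290 normalized counts against 1050 to 1310 and 4160 to 4860. Fibroblast markers were higher for 3 of 7, with sums of 10500 to 14800 against 2560 to 3400. Adipocyte markers were higher for 1 of 6 and lower for none. Proliferation genes were lower for 1 of 8 (median -0.25, none above 0), and keratinocyte and sebocyte markers for 1 of 4. Sums of the latter were 121 to 223 in KEAP1-KO and 46.9 to 85.0 in DKO tumors, without overlap. Cultured cells, which hold no host cells, showed the same order, with 157 to 214 in KEAP1-KO and 54.6 to 85.0 in DKO cells. Epithelial and lung tumor markers were higher for 1 and lower for 1 of 4. Skeletal muscle markers summed to 21.3 to 403 in DKO tumors and 11.2 to 54.2 in KEAP1-KO tumors. Their part in the member differences was not tested.

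**Figure D3:**
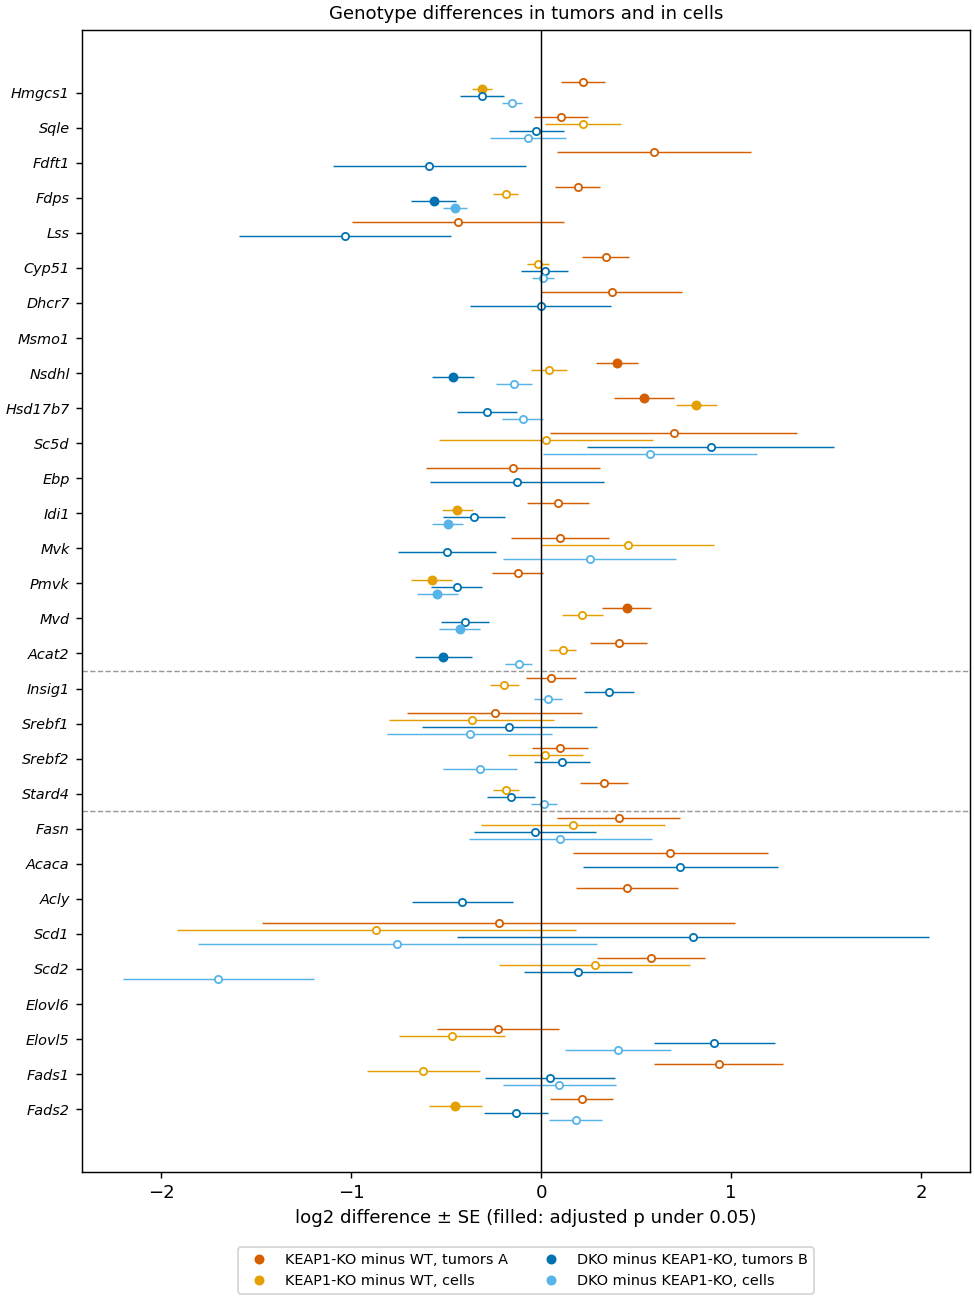
Log2 difference between genotypes (x axis, log2 units, ± SE) for each member, KEAP1-KO minus WT in tumors of Experiment A (dark orange) and cells (light orange) and DKO minus KEAP1-KO in tumors of Experiment B (dark blue) and cells (light blue), filled where the limma adjusted p is under 0.05. Rows that were not tested are not drawn, dashed lines separate the sterol enzymes, the regulators and transport genes and the fatty acid enzymes, and 3 filled points of KEAP1-KO tumors lie right of 0 while all filled DKO points lie left of it.

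The KEAP1-KO tumors of both experiments carry the same genotype in opposite flanks. No member was called between them by limma, and 8 of 28 had an unadjusted p under 0.05. Of all rows, 0.152% were called higher and 0.0117% lower in Experiment B, and 2632 of 34215 had an unadjusted p under 0.05. Differences of 13 of the 16 sterol enzymes tested were above 0, with a median of 0.27 against 0.01 over all rows. Mvd read 8.06 to 8.56 in Experiment A and 8.61 to 9.0 in Experiment B without overlap (0.45 ± 0.13, adjusted p = 0.309). KEAP1-KO and WT tumors also differed by 0.45 for this gene. Leukocyte and macrophage markers were higher in Experiment B for 2 of 8 and 5 of 8.

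The difference between KEAP1-KO and WT was unlike in tumors and cells for 3 members by the interaction test. The interaction, the KEAP1-KO minus WT difference in tumors of Experiment A less that in cells, was 0.53 ± 0.14 for Hmgcs1 (limma adjusted p = 0.0165), 0.52 ± 0.15 for Stard4 (adjusted p = 0.0467) and 1.55 ± 0.45 for Fads1 (adjusted p = 0.0391). Hmgcs1 was 0.22 in tumors and -0.31 in cells, Stard4 0.33 and -0.18, and Fads1 0.93 and -0.62. Of all 37246 rows, 1.50% had a higher and 3.88% a lower interaction.

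Stard4 read 8.70, 8.52, 8.68 and 8.78 in WT cells, 8.54, 8.45, 8.46 and 8.50 in KEAP1-KO cells, 9.28, 9.55, 9.69 and 9.31 in WT tumors and 9.66, 9.78, 10.16 and 9.56 in KEAP1-KO tumors of Experiment A. Neither pair of genotypes was apart. Its interaction call was lost in 17 of 27 alternatives (adjusted p from 0.00482 to 0.109) and that of Fads1, whose cell levels were 2.9 to 6.5 normalized counts on average, in 13 of 26 (0.0155 to 0.0944). The Hmgcs1 call was lost in 3 of 27 (0.000322 to 0.0606), none of them leaving out a library.

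Leukocyte markers had a lower interaction for 8 of 8 and macrophage markers for 7 of 8. Their part in the member interactions was not tested. The corresponding interaction for NRF2 deletion was called for no member by limma, with 5 of 30 at an unadjusted p under 0.05, against 2.12% of all rows higher and 1.55% lower and 5173 rows at an unadjusted p under 0.05. Leaving out DKO cell replicate 3, or summing the rows, gave 1 and 3 calls. Scd2 had 1.89 ± 0.59 (adjusted p = 0.0825).

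The sterol branch as a whole was higher in every tumor library than in any cell library, and the fatty acid branch was so within KEAP1-KO and DKO but not in WT. The mean over the 17 sterol enzymes was 5.71 ± 0.08, 5.72 ± 0.11 and 5.57 ± 0.08 (SD, n = 4) in WT, KEAP1-KO and DKO cells, and 6.63 ± 0.16, 6.80 ± 0.14, 7.0 ± 0.21 and 6.69 ± 0.07 in WT, KEAP1-KO of Experiment A, KEAP1-KO of Experiment B and DKO tumors. Every tumor library (6.41 to 7.28) was above every cell library (5.45 to 5.84). The mean over the 9 fatty acid enzymes was 4.25 ± 0.20, 4.23 ± 0.27 and 3.92 ± 0.38 in the cells and 4.43 ± 0.23, 4.70 ± 0.19, 4.81 ± 0.16 and 4.99 ± 0.27 in the tumors, in the same order. Here cell and tumor libraries overlapped in WT (3.98 to 4.42 and 4.21 to 4.73), while within KEAP1-KO (3.93 to 4.48 and 4.5 to 4.92) and DKO (3.54 to 4.40 and 4.64 to 5.26) every tumor was above every cell library.

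Between tumors and cells, the sterol branch differed by 0.92 in WT, 1.17 in KEAP1-KO and 1.11 in DKO, and the fatty acid branch by 0.18, 0.52 and 1.07. The sterol difference less the fatty acid difference was therefore 0.73, 0.65 and 0.04, where the SD between libraries is 0.27 to 0.31. Over the alternatives it ranged from 0.38 to 0.90 in WT, 0.36 to 1.17 in KEAP1-KO and -0.15 to 0.36 in DKO. No p is given for these means, since the members were chosen with results known. Among the fatty acid enzymes in DKO, Fads2 averaged 6.17 in cells and 8.65 in tumors, Scd2 7.63 and 9.56, and Scd1 2.76 and 4.65. In DKO cells Scd2 was spread from 5.83 to 9.08, and Scd1 was at 0 reads in most libraries. The listed row of Acaca averaged 2.2 in DKO cells and 3.14 in DKO tumors, while its summed rows averaged 7.92 and 7.68.

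Between genotypes, the branch means differed by 0.17 (sterol) and 0.27 (fatty acid) in Experiment A and by 0.01 and -0.01 in KEAP1-KO against WT cells. The latter gap of 0.02 was 0.36 over only the members that passed the filter, and 3 of 8 alternatives changed its sign. In Experiment B the sterol branch was -0.31 and the fatty acid branch 0.17 in DKO against KEAP1-KO tumors, a gap of -0.49 with an SD between libraries of 0.33. That gap kept its sign in all 8 alternatives (-0.65 to -0.29) and was -0.31 without KEAP1-KO tumor replicate 4. The highest fatty acid differences there were in low listed rows, with Elovl5 at 0.91, Scd1 at 0.80 and Acaca at 0.73, none of them called, while Fads2 (-0.13), Fasn (-0.03) and Acly (-0.42) were under 0. In DKO against KEAP1-KO cells both were under 0 (-0.15 and -0.32). Among the 6 fatty acid enzymes tested there, Scd2 (-1.70) and Scd1 (-0.76) were under 0 and the other 4 lay between 0.10 and 0.40.

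**Figure D4:**
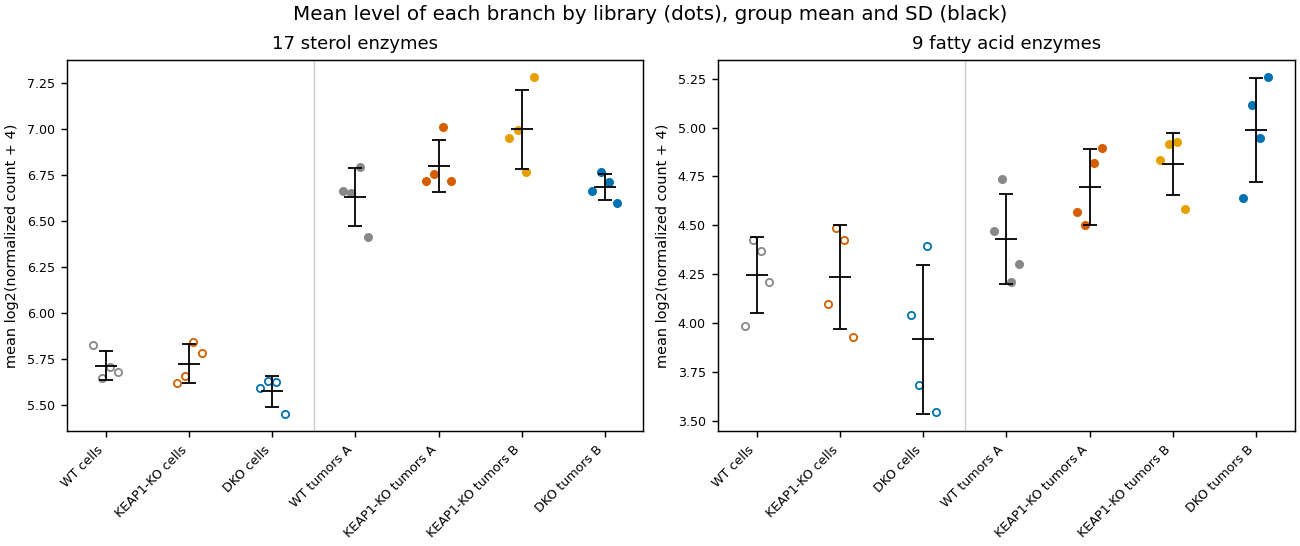
Mean level over the 17 sterol enzymes (left) and the 9 fatty acid enzymes (right) in each library (y axes, mean log2(normalized count + 4), each panel with its own range), with open dots for cells, filled dots for tumors, and group mean ± SD in black (n = 4). Sterol means are 5.45 to 5.84 in cells and 6.41 to 7.28 in tumors, while fatty acid means of cells and tumors overlap in WT.

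Neighboring lipid pathways were followed by the same test. Of 6 other sterol synthesis genes tested, none was called in either tumor comparison (0 and 1 at an unadjusted p under 0.05, limma). Between tumors and cells 7 were tested. In tumors 3 were called higher and 2 lower in both WT and KEAP1-KO, and 2 higher and 2 lower in DKO. Their median differences were 0.05, 0.32 and 0.64 in WT, KEAP1-KO and DKO. Tm7sf2, a sterol reductase, was higher in tumors by 1.88 in WT, 1.36 in KEAP1-KO and 1.30 in DKO. Acat1, the mitochondrial thiolase, was lower in tumors, by -1.42, -1.09 and -1.02. In cells, Lbr, a sterol reductase of the nuclear envelope, was lower in DKO than in KEAP1-KO (-0.21).

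Acss2, which makes acetyl-CoA from acetate and feeds both branches, was higher with KEAP1 deletion and lower with NRF2 deletion in tumors and in cells. Its row (a retained intron) averaged 6.08, 6.74 and 5.19 in WT, KEAP1-KO and DKO cells. It was 1.79 ± 0.12 higher in KEAP1-KO than in WT tumors (limma adjusted p = 5.0e-08) and -1.2 ± 0.12 in DKO against KEAP1-KO tumors (5.7e-06). In cells the differences were 0.65 ± 0.11 (8.7e-04) and -1.54 ± 0.11 (9.0e-07), and the KEAP1 interaction was 1.13 (1.2e-05). Groups did not overlap in these 4 comparisons.

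Other fatty acid synthesis genes tested in tumors were called for 1 higher and 1 lower of 14 in Experiment A and for 0 and 2 of 14 in Experiment B. The lower gene in Experiment A was Elovl7, an elongase, which averaged 4.75 in WT tumors and was at 0 reads in all KEAP1-KO tumors of Experiment A, as it was in KEAP1-KO cells against 5.82 in WT cells. Acacb, the mitochondrial acetyl-CoA carboxylase, was -1.72 in DKO against KEAP1-KO tumors with overlapping libraries (adjusted p = 0.0388). In cells 3 of 15 were higher and 1 lower in KEAP1-KO, with Me1, malic enzyme and a source of NADPH, at 1.75, and 1 higher and 3 lower in DKO against KEAP1-KO, with Me1 at -1.04.

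Of 10 sterol storage and export genes, 4 were lower in tumors with KEAP1 deletion. Apoe, a lipoprotein component made by macrophages among others, was -1.68, Ch25h, which makes hydroxycholesterol, -1.44, and Abca1, the cholesterol exporter, -1.01. The macrophage markers given above moved the same way, and their part was not tested. In Experiment B none of the 10 was called (4 at an unadjusted p under 0.05). In cells Soat2, which esterifies cholesterol (gene row), was -0.70 in KEAP1-KO against WT and 1.75 in DKO against KEAP1-KO.

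Among genes of SREBP control and lipoprotein uptake, 1 of 12 was higher in KEAP1-KO tumors, Mbtps1, the protease that cleaves SREBPs (0.40). In Experiment B, Mylip, which degrades the LDL receptor, was 0.88 higher in DKO tumors and Npc2, which moves cholesterol out of lysosomes, -0.44. In cells 1 of 11 was lower in KEAP1-KO, and 2 were higher in DKO against KEAP1-KO. Triglyceride and phospholipid genes were called for 2 higher and 2 lower of 13 in Experiment A. Gpam, which starts glycerolipid synthesis, was -0.95, Lpin2, a phosphatidate phosphatase, 0.74, and Acsl4, an acyl-CoA synthetase, 0.60. In Experiment B, Lpin2 was -1.05 and Lpin1 0.62. Of the fatty acid oxidation genes, 0 of 7 were called in either tumor comparison by limma (0 and 1 at an unadjusted p under 0.05), and in cells 0 of 6 in KEAP1-KO and 2 of 6, both higher, in DKO against KEAP1-KO.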

How the data were processed

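RNA-seq libraries were prepared from ribosomal RNA-depleted RNA of 12 cultured cell libraries and 16 tumors and quantified by the authors with Salmon (named in the submitters' processing notes, version not given there) against GENCODE mouse transcripts. The genome build was not given in the sources used here. The deposited values are log2(normalized count + 4), made by the authors in iDEP. After that transform was undone, the low values (up to 20 reads) were whole multiples of 1 read within 0.05 in every library, which gave the recovered depth. A value of 0 reads reads as 2. Of the 43143 rows, 9122 are genes and 34021 are transcripts, and counting error is largest for members near 0.

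Members and lists were chosen with earlier results of these data known. Rows with a normalized count of at least 5 in 4 libraries entered limma 3.58.1 under R 4.3.3 (empirical Bayes with a trend), in 1 fit for the 4 tumor groups, 1 for the 3 cell groups and 1 for all 7. P-values were adjusted by Benjamini-Hochberg over all rows tested, with a threshold of 0.05. The step was tested on simulated data. Branch values are means over members per library, without a test. Named genes were all members, at most 3 called genes per further list and comparison (largest difference), and Keap1, Nfe2l2 and Nqo1 as checks. Some genes of the further lists are not reported here. Values were handled with pandas 2.3.3 and numpy 2.4.6 in Python 3.11.15. Promoters came from RefSeq (GRCm38.p6) and were searched on both strands. Alternatives comprised another pseudocount (1), filters, quantile normalization, median centring, no trend, a replicate block, fits of only the groups compared, stricter calls and leaving out each library. Sums over the rows of a gene, and branches of only the members that passed the filter, were added after seeing the data.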

Additional observations from a re-analysis of the deposited data

Results flagged for a closer look

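In 203 member and group pairs with 4 libraries, the most distant library was tested by its gap to the nearest other library over the range of the group (Dixon's test), which chance passes in about 1 in 20 groups. It stood apart in 20 pairs.

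Most of these were low rows with reads in 1 library only, the other 3 being at 0 reads. Such single libraries were at 2.55 for Fdft1 in KEAP1-KO cells, and for Lss at 2.31 in KEAP1-KO cells, 2.68 in DKO tumors and 3.92 in Experiment A's KEAP1-KO tumors. Msmo1 had single libraries at 5.71 in WT tumors and 4.46 in KEAP1-KO tumors of Experiment B. Acaca had them at 3.06 in WT cells and 2.79 in DKO cells. Scd1 had them at 5.06 in DKO cells, 6.22 in WT tumors and 5.32 in Experiment A's KEAP1-KO tumors. Elovl6 had them at 3.07 in DKO tumors and 2.57 in Experiment A's KEAP1-KO tumors.

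Among rows with reads in all 4 libraries, Hmgcs1 had 1 DKO tumor at 11.61 against 11.33 to 11.36 in the other 3. Fads2 had 1 KEAP1-KO tumor of Experiment A at 9.14 against 8.29 to 8.33. Acat2 had 1 DKO cell library at 8.09 against 8.29 to 8.32. Fdft1 had 1 KEAP1-KO tumor of Experiment B at 3.17, with the others up to 5.16, and Fasn had 1 in the same group at 4.56, with the others up to 5.89. Acly had 1 WT tumor at 3.60 with the lowest at 2.75, and Fads1 had 1 KEAP1-KO cell library at 3.34 with the lowest at 2.53.

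The KEAP1-KO minus WT difference in tumors of Experiment A was unlike that in cells for Hmgcs1 (0.53), Stard4 (0.52) and Fads1 (1.55) by the interaction test given in the report.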

How the results depend on the processing

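Of 71 called member differences, 35 kept their call under every alternative, 36 lost it under at least 1 and 0 changed direction. For the rest of this paragraph values are counts of members called, and the causes were not tested unless the alternative itself tests fewer members or asks for more. In Experiment A the main count of 3 became 0 with no trend, 1 with only the groups compared, 0 at an adjusted p under 0.01, 0 with a log2 difference of at least 1, 0 with gene rows only, 8 with rows summed, and 0 to 5 with 1 tumor left out. In Experiment B the main count of 3 became 5 with a filter on a mean of 25, 5 with only the groups compared, 1 at an adjusted p under 0.01, 0 with a log2 difference of at least 1, 1 with gene rows only and 7 with rows summed, and was 2 to 4 with 1 tumor left out. In cells, KEAP1-KO against WT (5), DKO against KEAP1-KO (4) and DKO against WT (5) became 0, 0 and 1 with a log2 difference of at least 1, 1 in each with gene rows only, and 8 in each with rows summed. For tumors against cells, a log2 difference of at least 1 left 7 of 14 in WT, and gene rows only left 1, 2 and 2 in WT, KEAP1-KO and DKO. The KEAP1 interaction (3) became 1 with a pseudocount of 1, 9 with median centring, 1 with no trend, 0 at an adjusted p under 0.01, 1 with a log2 difference of at least 1 and 0 with gene rows only, and was 1 to 3 with 1 library left out. The NRF2 interaction (0) became 1 with a filter on a mean of 25 and 3 with rows summed, and was 0 to 1 with 1 library left out.

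Over all rows tested, no same-numbered libraries had deviations correlated above 0.04 (lowest -0.034). The library of the same number was the best match for 0 of 4 libraries in both tumor comparisons, 1 of 4 in 2 cell comparisons and 4 of 4 between WT and DKO cells, a hint from the data and not from the design. No source used here says which tumors shared a mouse, so the pairing is unknown. With the replicate block the count was 8 in Experiment A (all higher), 7 in Experiment B (6 lower and 1 higher, Insig1) and 5 for the KEAP1 interaction. No block could be fitted between tumors and cells or between the KEAP1-KO tumors of both experiments.

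The gap between the branches was 0.36 in KEAP1-KO against WT cells over only the members that passed the filter. Between tumors and cells it was 0.38 in WT and 0.36 in KEAP1-KO with a filter on a mean of 25, 1.17 in KEAP1-KO with medians over members and 0.36 in DKO with rows summed. For the NRF2 interaction it was -0.66, and became -0.005 with medians and -0.31 with rows summed. Gene rows exist for 2 members, so no branch value could be had from them alone. Msmo1, Lss, Elovl6, Acaca, Acly, Ebp, Dhcr7 and Fdft1 did not pass the filter in cells on their listed rows. For Acaca (7.83 to 7.92 on average in the cell groups), Lss (6.82 to 7.37) and Msmo1 (5.82 to 6.44) the summed rows were well covered in cells, so the row that carries the symbol limits them and not depth.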
